A study of Rattus norvegicus with 59 samples.

Results

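Chromosomes 10 and 12 of the rat were followed through maps of 2 histone marks in heart muscle nuclei. They held 1230 of the 15874 genomic bins deposited for both marks (7.75%). The bins were taken by chromosome name alone, and the chromosomes were chosen with earlier results of these data known. For H3K9me2 these were 541 of 6171 bins (371 on chromosome 10 and 170 on chromosome 12), and for H3K27me3 689 of 9703 bins (494 and 195). The other 18 chromosomes with bins were 1 to 9, 11 and 13 to 20. Nuclei of the left ventricle, from male rats of the Sprague Dawley strain, were sorted on PCM1, a centriolar satellite protein used to pick out cardiomyocyte nuclei. Banded rats started at about 170 g and carried a suture tightened around the ascending aorta for 6 weeks, which overloads the ventricle with pressure. Per the labels, they were retained only with a hypertrophied heart that was not failing. Sham rats, of the same starting weight, had the same operation but the suture was not tightened. Trained rats started at about 280 g and ran intervals on an inclined treadmill for 6 weeks, and control rats of that weight were not trained. Ages are not given in the labels. No drug or altered gene is named for any group, and surgery, anaesthesia and the pain killer buprenorphine were common to banded and sham rats. Each group had 4 samples per mark.

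H3K9me2, dimethylation of lysine 9 of histone H3, is laid down mainly by the methyltransferases G9a and GLP and is associated with silent chromatin in broad domains, many of them gene-poor and near the nuclear lamina. H3K27me3, trimethylation of lysine 27, is laid down by Polycomb repressive complex 2 and marks silent genes, many of them developmental regulators with CpG-rich promoters. Gene-rich chromosomes therefore give the marks different surroundings from gene-poor ones.

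The values carried no replicate error, because each mark had 1 column per group for its 4 samples. Differences below are descriptions of those columns, with no p-value, and the spread over the 18 other chromosomes is given as a yardstick and not as an error. Within a mark, the sorted values of all 4 columns nearly coincided (median gap 0.000647 on the log2 scale for H3K9me2 and 0.00048 for H3K27me3), as in columns brought to a common distribution. A gain on some bins is then matched by a loss on others, and a rise or fall of a mark everywhere at once cannot be seen. Bin values were turned back from log2 to RPM, the share of a library's reads in normalized form, and each column summed to between 966900 and 967355 RPM. The read depth is unknown, so no interval or detection limit is given. Genome positions are printed as the files give them, and their build is not named in the labels or headers. The gene IDs of the RNA tables could not be paired with names or positions, so neither cardiomyocyte markers nor genes on the bins were examined.

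The description of both chromosomes as gene-dense held in the RefSeq gene table of GRCr8, an assembly used here for whole chromosomes only. Chromosome 10 carried 16.7 protein-coding genes per Mb and chromosome 12 carried 12.9, ranks 1 and 2 of 20. The 18 other chromosomes ranged between 5.56 and 11.7 genes per Mb, with a median of 7.44.

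H3K27me3 was dense on both chromosomes. Density is the summed RPM of the bins divided by the Mb they cover. On chromosome 10 it was 462 RPM per Mb in banded, 473 in sham, 485 in trained and 493 in control rats. Chromosome 10 was the densest of the 20 chromosomes in each of the 4 groups. Chromosome 12 had 426 RPM per Mb in banded, 441 in sham, 435 in trained and 451 in control rats, rank 3 in banded and rank 2 in sham, trained and control rats. The 18 other chromosomes lay between 334 and 433 RPM per Mb in banded, 330.0 and 436 in sham, 322 and 432 in trained and 318 and 439 in control rats. Chromosome 2 was the sparsest of them in each group. Together, chromosomes 10 and 12 exceeded the rest 1.18-fold in banded, 1.22-fold in sham, 1.24-fold in trained and 1.27-fold in control rats. They held 7.17% to 7.63% of the H3K27me3 signal on 6.12% of the covered length.

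H3K9me2 did not share this enrichment, and the 2 chromosomes differed from each other. Chromosome 10 had 381 RPM per Mb in banded, 391 in sham, 395 in trained and 393 in control rats, which placed it 13th of 20 in banded, 6th in sham, 4th in trained and 6th in control rats. Chromosome 12 had 352 RPM per Mb in banded, 364 in sham, 361 in trained and 354 in control rats. That was the lowest of the 20 chromosomes in banded, sham and control rats and the second lowest in trained rats. Chromosome 20, the sparsest of the 18 others, had 363, 366, 356 and 356 RPM per Mb in the same groups, and chromosome 16, the densest, had 427, 421, 430 and 431. The ratio of chromosomes 10 and 12 to the rest was 0.974 in banded, 1.00 in sham, 1.01 in trained and 0.998 in control rats. All 4 ratios lay within 1 SD of the other chromosomes (0.055 to 0.061 on the log2 scale), and the side of 1 on which they fell depended on the processing. The plot of density by chromosome shows both marks.

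**Figure D1:**
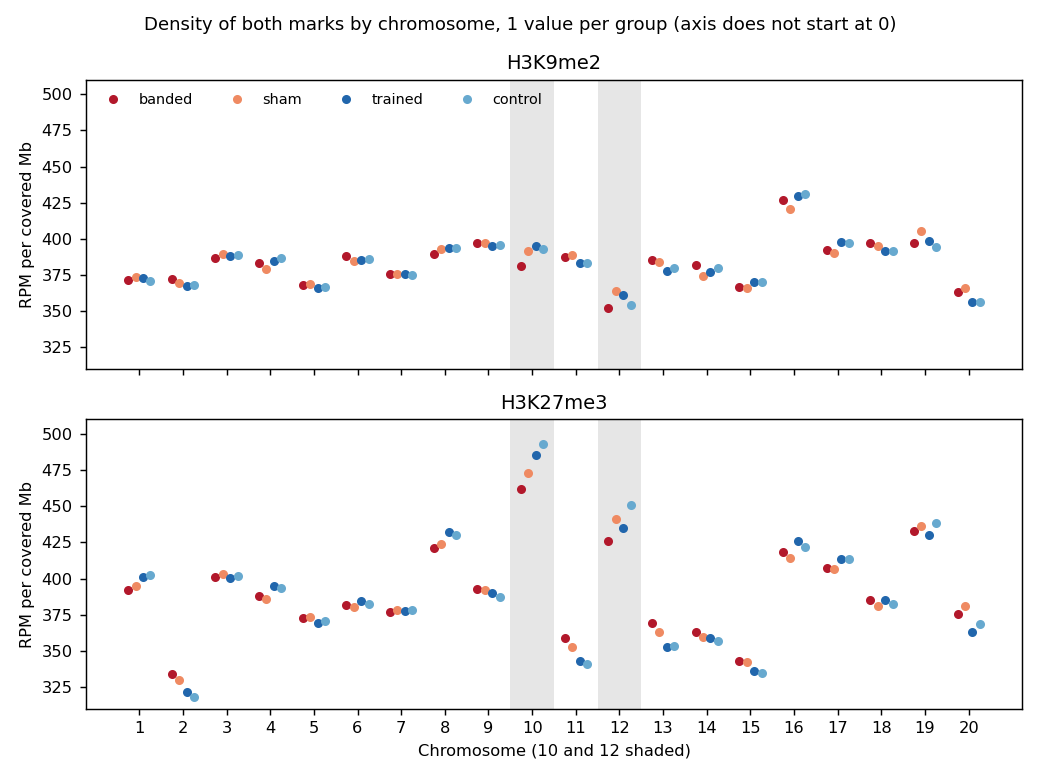
Density of H3K9me2 (top) and H3K27me3 (bottom) in RPM per covered Mb for each of 20 chromosomes, with 1 point per group and chromosomes 10 and 12 shaded. Chromosome 10 carries the densest H3K27me3 in every group (462 to 493 RPM per Mb), while chromosome 12 lies at or near the bottom for H3K9me2 (352 to 364 RPM per Mb). The vertical axes do not start at 0.

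The bins, made by circular binary segmentation (a method that splits a profile into stretches of steady level), were finer on these chromosomes. H3K9me2 was cut into 3.51 bins per Mb, against 2.37 on the other chromosomes, and 20.5% of its length lay in bins of 1 Mb or more, against 47.3%. The longest H3K9me2 bin was 2.41 Mb on chromosomes 10 and 12 and 14.7 Mb elsewhere. Long uniform H3K9me2 stretches thus made up less of chromosomes 10 and 12. H3K27me3 was cut into 4.48 bins per Mb, against 3.83, with 10.1% of the length in bins of 1 Mb or more, against 18.2%. That was less clear on chromosome 12, with 4.27 bins per Mb, below the 4.39 of chromosome 8. Its median H3K27me3 bin of 170 kb was longer than the 160 kb of the other chromosomes.

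Bins of chromosomes 10 and 12 were also more uneven in level. The length-weighted SD of log2 density over bins was 0.41 for H3K9me2, against 0.34 elsewhere, and 0.85 for H3K27me3, against 0.74. The part of the finer bins in these SDs was not tested. Both extremes of H3K9me2 were over-represented by length: 14.8% of chromosomes 10 and 12 lay in the densest 10% of all bins and 16.3% in the sparsest 10%, against 6.59% and 8.55% of the other chromosomes. For H3K27me3, 16.1% of the length lay in the densest 10%, against 6.95%. The share in the sparsest 10% was 11.1%, against 12.4%. On chromosome 10 the H3K27me3 shares were 16.6% in the densest and 9.89% in the sparsest 10%, so only the dense end was in excess. On chromosome 12 they were 15.2% and 14.1%, so both ends were in excess by length. By count this did not hold at its sparse end, with 7.69% of H3K27me3 bins, against 10.2% on the other chromosomes. These limits were set over all bins, chromosomes 10 and 12 included, from the mean of the 4 groups.

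The bins at both ends are given next, among those of 100 kb or more. The densest H3K27me3 bin lay on chromosome 10 from 84895000 to 85135002, with 1476 RPM per Mb in banded, 1651 in sham, 1659 in trained and 1677 in control rats. The next, on chromosome 10 from 70375000 to 70795002, had 1247, 1303, 1589 and 1641 RPM per Mb in the same order. It overlapped the densest H3K9me2 bin of the chromosome, from 70485001 to 70785001, which had 548 RPM per Mb in banded, 505 in sham, 766 in trained and 810.4 in control rats. In this shared stretch the surgery groups had less of both marks than the exercise groups. That was not particular to the stretch. On the other chromosomes too, the sham minus control difference of a bin fell with its log2 density (Pearson r of -0.55 for H3K9me2 and -0.71 for H3K27me3). A further dense H3K9me2 bin lay from 108525001 to 108655001 (469 RPM per Mb in banded, 451 in sham, 747 in trained and 792 in control rats). On chromosome 12 the densest H3K27me3 bins ran from 44255000 to 44355002 (1078, 1183, 1471 and 1562 RPM per Mb in banded, sham, trained and control rats) and from 15425000 to 15585002 (1061, 1128, 1206 and 1259). The densest H3K9me2 bins of chromosome 12 were neighbours, from 40785001 to 40945001 and from 40945001 to 41305001, with means over the groups of 535 and 567 RPM per Mb.

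At the sparse end, chromosome 12 had a long stretch low in both marks. Its sparsest H3K9me2 bins ran from 17845001 to 19565001 (147 RPM per Mb in banded, 117 in sham, 152 in trained and 169 in control rats) and from 19855001 to 21215001 (146, 151, 168 and 159.6 RPM per Mb in the same order). Its sparsest H3K27me3 bin, from 19855000 to 20755002, overlapped the last of these, with 86.0, 74.3, 95.1 and 102 RPM per Mb. The other sparse H3K27me3 bin of chromosome 12 ran from 6305000 to 6495002 (mean of the groups 133 RPM per Mb). On chromosome 10 the lowest H3K27me3 bin ran from 66135000 to 66585002, with 43.4 RPM per Mb in banded, 43.8 in sham, 36.9 in trained and 37.1 in control rats, and the next from 93635000 to 93985002 (mean 92.0). The lowest H3K9me2 bins of chromosome 10, from 74695001 to 74915001 and from 91885001 to 92045001, had means of 118 and 132 RPM per Mb. The sparse H3K9me2 and H3K27me3 bins of chromosome 10 named here lay in different places. On chromosome 12 only 1 pair of them overlapped. The H3K9me2 bin of that pair was 1360 kb long, against 220 and 160 kb for the sparse H3K9me2 bins of chromosome 10.

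Along both chromosomes the marks rose and fell together. Over the 158 windows of 1 Mb on chromosomes 10 and 12 that were at least 50% covered, log2 densities of the marks had a Pearson r of 0.58 in banded, 0.53 in sham, 0.81 in trained and 0.81 in control rats. Over the 2396 windows of the other chromosomes r was 0.52 in banded, 0.54 in sham, 0.70 in trained and 0.68 in control rats. The coupling was thus about the same as elsewhere in the surgery groups and closer than elsewhere in the exercise groups. A long bin gives the same density to every window wholly within it. H3K9me2 bins of 1 Mb or more held 20.5% of the length here and 47.3% elsewhere. Their part in the comparison of r was not tested. Chromosome 12 alone had an r of 0.69 in banded, 0.71 in sham, 0.85 in trained and 0.86 in control rats, rank 2, 2, 1 and 1 of 20. Chromosome 10 alone had an r of 0.50 in banded, 0.37 in sham, 0.79 in trained and 0.78 in control rats, rank 9, 16, 5 and 4. In windows of 250 kb the order of the chromosomes turned round in trained rats (0.79 on chromosome 12 and 0.83 on chromosome 10). Windows are not independent, and the marks share genome position and base composition, so these values carry no test.

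The balance of the marks was tilted to H3K27me3. Its density exceeded that of H3K9me2 in 87 of 111 windows of chromosome 10 (78.4%) and 37 of 47 windows of chromosome 12 (78.7%), against 1023 of 2396 windows elsewhere (42.7%). The median of H3K9me2 minus H3K27me3 log2 density was -0.27 on chromosome 10, -0.24 on chromosome 12 and 0.076 elsewhere. Each mark is scaled to its own total, so this compares shares of a mark and not amounts of it. On chromosome 10 the window most tilted to H3K27me3 ran from 85000001 to 86000000. There H3K27me3 had 799 RPM per Mb in banded, 862 in sham, 948 in trained and 941 in control rats, and H3K9me2 had 322, 344, 435 and 456. On chromosome 12 it ran from 44000001 to 45000000 (703, 763, 877 and 921 RPM per Mb of H3K27me3, with 303, 319, 411 and 413 of H3K9me2). Both windows overlap the densest H3K27me3 bin of their chromosome. The windows most tilted to H3K9me2 lay on chromosome 10 from 32000001 to 33000000 (log2 difference 0.88) and on chromosome 12 from 25000001 to 26000000 (0.72). In the window on chromosome 10, H3K9me2 was 475 RPM per Mb in banded, 445 in sham, 393 in trained and 394 in control rats, and H3K27me3 was 264, 256, 205 and 205.

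**Figure D2:**
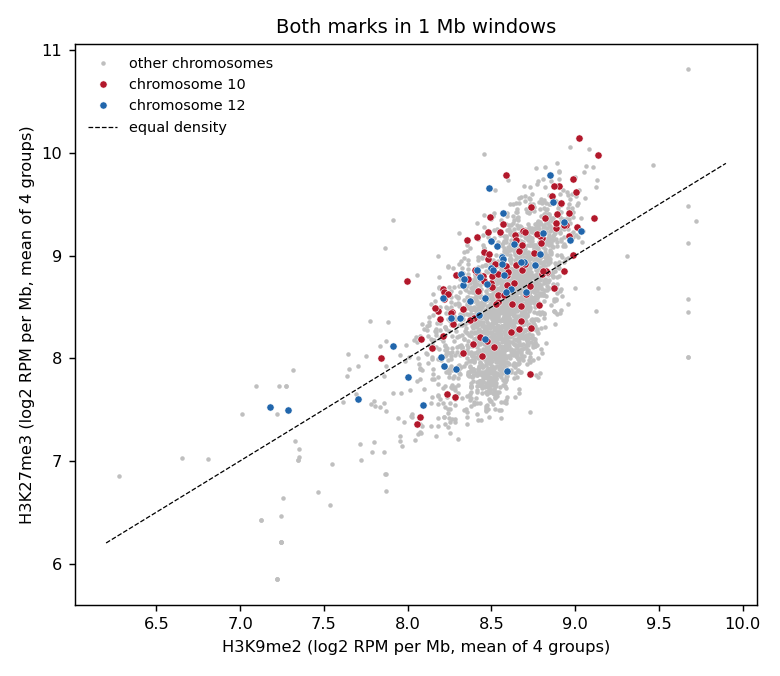
H3K27me3 against H3K9me2 in 1 Mb windows, each as log2 RPM per Mb averaged over the 4 groups, with chromosome 10 in red, chromosome 12 in blue, the other chromosomes in grey and a dashed line at equal density. Most windows of chromosomes 10 and 12 lie above the line (87 of 111 and 37 of 47).

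The comparison of banded with sham rats addresses growth under pressure overload. Both marks were lower in banded rats on chromosomes 10 and 12, by small amounts. H3K9me2 was 381 RPM per Mb in banded and 391 in sham rats on chromosome 10, and 352 and 364 on chromosome 12, log2 ratios of -0.038 and -0.047. H3K27me3 was 462 in banded and 473 in sham rats on chromosome 10, and 426 and 441 on chromosome 12, log2 ratios of -0.034 and -0.050. For each mark chromosome 12 was the lowest of 20 chromosomes and chromosome 10 the second lowest, with chromosome 19 next for H3K9me2 (-0.031), although its length-weighted median went the other way (0.018, rank 15). The other 18 ranged between -0.031 and 0.030 for H3K9me2 (SD 0.014) and between -0.022 and 0.025 for H3K27me3 (SD 0.013). Medians over bins, weighted by length, gave chromosomes 12 and 10 the same ranks. They were -0.021 on chromosome 10 and -0.048 on chromosome 12 for H3K9me2, against -0.0052 to 0.037 elsewhere, and -0.038 and -0.046 for H3K27me3, against -0.0049 to 0.037. The H3K9me2 medians of chromosomes 9, 11 and 15 were exactly 0, falling on bins with equal values in banded and sham rats. Elsewhere than on 10 and 12 such bins had a median length of 4.63 Mb, and their part in the range was not tested. No replicates stand behind these chromosome values, so they were not tested against animal to animal variation. By summed H3K27me3, chromosomes 10 and 12 were also the lowest and second lowest of 20 between the baselines, sham minus control (-0.059 and -0.030), and this comparison shares the sham column.

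The shift was spread over many bins. H3K9me2 was lower in banded rats in 323 of 541 bins of chromosomes 10 and 12 (59.7%), against 45.7% of all bins. H3K27me3 was lower in 427 of 689 (62.0%), against 46.9%, lower here being counted without regard to size. Falls of more than 0.25 on the log2 scale were found in 66 H3K9me2 bins (12.2%), against 6.69% of all bins, and gains of that size in 11 (2.03%), against 3.82%. For H3K27me3 such falls were found in 37 bins (5.37%), against 2.48% of all bins, and such gains in 5 (0.726%), against 1.46%. At this size, then, falls were more common than over all bins, and gains rarer. In either direction, 77 H3K9me2 bins (14.2%) passed 0.25, against 10.5%, and 42 H3K27me3 bins (6.10%), against 3.95%. At a difference of more than 0.5 there was 1 H3K9me2 bin (0.185% of 541), against 0.146% of all bins, and no H3K27me3 bin (0 of 689), against 0.0412%. Changes past 0.5 were thus about as rare on these chromosomes as over the genome, while small falls were more frequent. In segments of 10 Mb, H3K9me2 was lower in 13 of 16 segments (81.3%), against 46.3% of all 257, and H3K27me3 in 14 of 16 (87.5%), against 44.0%.

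The bin past 0.5 lay near the end of chromosome 10, from 108175001 to 108245001. It had 269 RPM per Mb of H3K9me2 in banded and 394 in sham rats (log2 difference -0.55), and 191 in trained and 154 in control rats (0.31). The same bin thus had the largest fall with banding and the largest gain with training of all H3K9me2 bins on chromosomes 10 and 12. It was 70.0 kb long, and the median H3K9me2 bin of these chromosomes 180.0 kb. The next fall with banding, from 31185001 to 31285001 on chromosome 10, had 416 RPM per Mb in banded and 582 in sham rats (-0.49). The largest gains lay on chromosome 10 from 61395001 to 61665001 (331 in banded and 263 in sham rats, 0.33) and from 8595001 to 8775001 (488 and 389, 0.33). Within the first of these gains lay the largest H3K27me3 gain, from 61415000 to 61495002, with 431 RPM per Mb in banded and 347 in sham rats (0.31). A further H3K27me3 gain ran from 60345000 to 60655002 (194 and 158, 0.30). The largest H3K27me3 falls lay on chromosome 10 from 92155000 to 92315002 (195 and 253, -0.37) and from 3755000 to 4185002 (197 and 254, -0.37).

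The H3K9me2 shift went with the level of the mark, and the H3K27me3 shift did so less evenly. Bins were placed in 5 equal classes of density, numbered 1 (sparse) to 5 (dense), using the trained and control columns, which this comparison does not use. In class 1, H3K9me2 differed by -0.22 on chromosomes 10 and 12 (140 bins), against -0.11 on the other chromosomes (1095 bins). In class 2 it differed by -0.13, against 0, and in class 3 by -0.037, against 0.015. The median of 0 falls on bins with exactly equal values in banded and sham rats. In class 5 both sets were higher in banded rats, by 0.062 and 0.068, and in class 4 by 0.042 and 0.025. The gap to the other chromosomes thus lay in classes 1 to 3. For H3K27me3 it lay mainly in classes 1 and 2: -0.15 against -0.0042 in class 1 and -0.12 against 0.045 in class 2. Class 3 had 0.042 against 0.042, class 4 -0.0012 against 0.020 and class 5 -0.037 against -0.028. The difference of H3K9me2 had a Pearson r with that outside density of 0.62 over the bins of chromosomes 10 and 12 and of 0.50 over the others, as a description. For H3K27me3 r was 0.33 and 0.13, and its class medians did not rise steadily with density. The part of mark level in the shift was not tested.

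**Figure D3:**
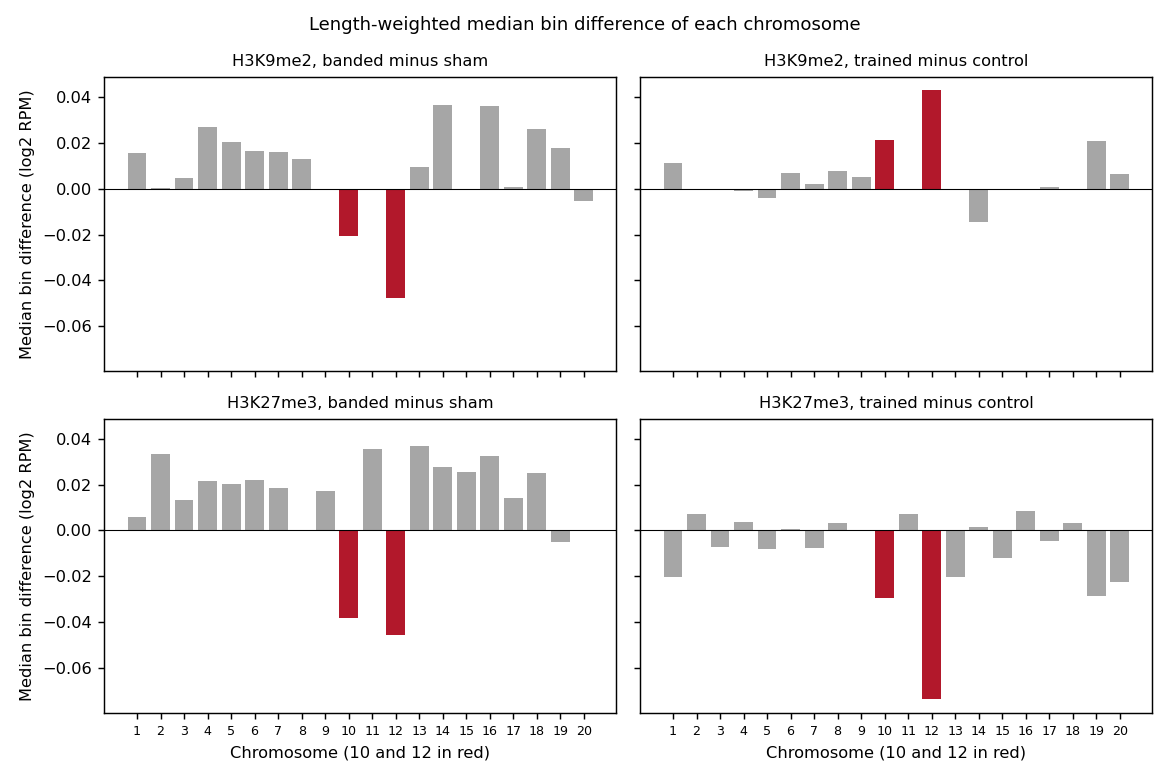
Length-weighted median bin difference (log2 RPM) of each chromosome for H3K9me2 (top) and H3K27me3 (bottom), banded minus sham (left) and trained minus control (right), with chromosomes 10 and 12 in red. Chromosomes 10 and 12 are the lowest for both marks with banding (-0.021 to -0.048) and are the highest for H3K9me2 (0.022 and 0.043) and the lowest for H3K27me3 (-0.030 and -0.074) with training.

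Trained and control rats were compared to follow exercise growth. Here the marks parted. H3K9me2 was 361 RPM per Mb in trained and 354 in control rats on chromosome 12, a log2 ratio of 0.029 and the highest of 20 chromosomes. On chromosome 10 it was 395 and 393 RPM per Mb (0.0084, rank 3 after chromosomes 12 and 19). H3K27me3 was 435 in trained and 451 in control rats on chromosome 12 (-0.052, the lowest of 20) and 485 and 493 on chromosome 10 (-0.022, the fourth lowest). The 18 others ranged between -0.011 and 0.017 for H3K9me2 (SD 0.0062) and between -0.028 and 0.016 for H3K27me3 (SD 0.012). By length-weighted medians, chromosomes 12 and 10 were first and second in both directions: 0.043 and 0.022 for H3K9me2, against -0.014 to 0.021 elsewhere, and -0.074 and -0.030 for H3K27me3, against -0.029 to 0.0085. The H3K9me2 medians of chromosomes 2, 3, 11, 13 and 15 were exactly 0, falling on bins with equal values in trained and control rats. Elsewhere than on 10 and 12 such bins had a median length of 2.785 Mb, and their part in the range was not tested. Chromosome 10 was close to chromosome 19 in both marks (0.021 and -0.029).

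Few bins on these chromosomes changed much with training. H3K9me2 was higher in trained rats over most of chromosome 12, being lower in 58 of its 170 bins (34.1%), and was lower in 167 of 371 bins on chromosome 10 (45.0%), against 48.9% of all bins. At 0.25 in either direction there were 33 H3K27me3 bins (4.79%), against 2.69% of all bins. H3K27me3 was lower at all in 145 of 195 bins of chromosome 12 (74.4%) and 298 of 494 of chromosome 10 (60.3%), against 44.8%. By length it was lower over 85.1% of chromosome 12 and 66.0% of chromosome 10, against 53.0% over all bins. Falls of H3K27me3 past 0.25 were found in 29 of 689 bins (4.21%), against 1.74% of all bins, and gains in 4 (0.581%), against 0.948%. At 0.25, 7 of 541 H3K9me2 bins differed in either direction (1.29%), against 1.65%. Past 0.5 there were 0 of 541 H3K9me2 bins, against 0.0486% of all bins, and 1 of 689 H3K27me3 bins, against 0.124%. That bin lay on chromosome 12 from 43885000 to 43925002, with 169 RPM per Mb in trained and 246 in control rats (log2 difference -0.54). A longer fall of H3K27me3 ran on chromosome 12 from 33055000 to 33815002 (136 and 182 RPM per Mb, -0.41). The largest gains of H3K27me3 were in short bins, from 97715000 to 97745002 on chromosome 10 (699.6 and 499, 0.49) and from 24945000 to 25005002 on chromosome 12 (375 and 300.0, 0.32). For H3K9me2, the gain after that at 108175001 lay from 20255001 to 20335001 on chromosome 10 (536 and 445, 0.27), and the falls from 40925001 to 40955001 (490.4 and 601, -0.29) and from 65925001 to 65985001 (542 and 652, -0.26). All bins named here for H3K9me2 lay on chromosome 10.

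In 10 Mb segments the change on chromosome 12 had 1 direction throughout. H3K9me2 was higher in trained rats in all 5 segments of chromosome 12 (0.018 to 0.045 on the log2 scale) and H3K27me3 lower in all 5 (-0.069 to -0.030). On chromosome 10, H3K9me2 was lower in 4 of 11 segments and H3K27me3 in 9 of 11. Over all 257 segments, H3K9me2 was lower in 50.2% and H3K27me3 in 39.3%. In density classes set from the banded and sham columns, H3K9me2 differed by 0.035, 0.059, 0.039, 0.020 and 0.0014 on chromosomes 10 and 12, class 1 to 5. Elsewhere it differed by 0 in classes 1 to 4 and by 0.0045 in class 5. The medians of 0 fall on bins with exactly equal values in trained and control rats. Such bins made up 9.53% of the length of the other chromosomes and 2.03% of chromosomes 10 and 12. The corresponding H3K27me3 differences were -0.14, -0.16, -0.062, -0.011 and -0.012, against -0.066, -0.020, 0.0069, 0.022 and 0.015. For both marks the gap to the other chromosomes was widest in class 2 and narrowest in class 5.

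**Figure D4:**
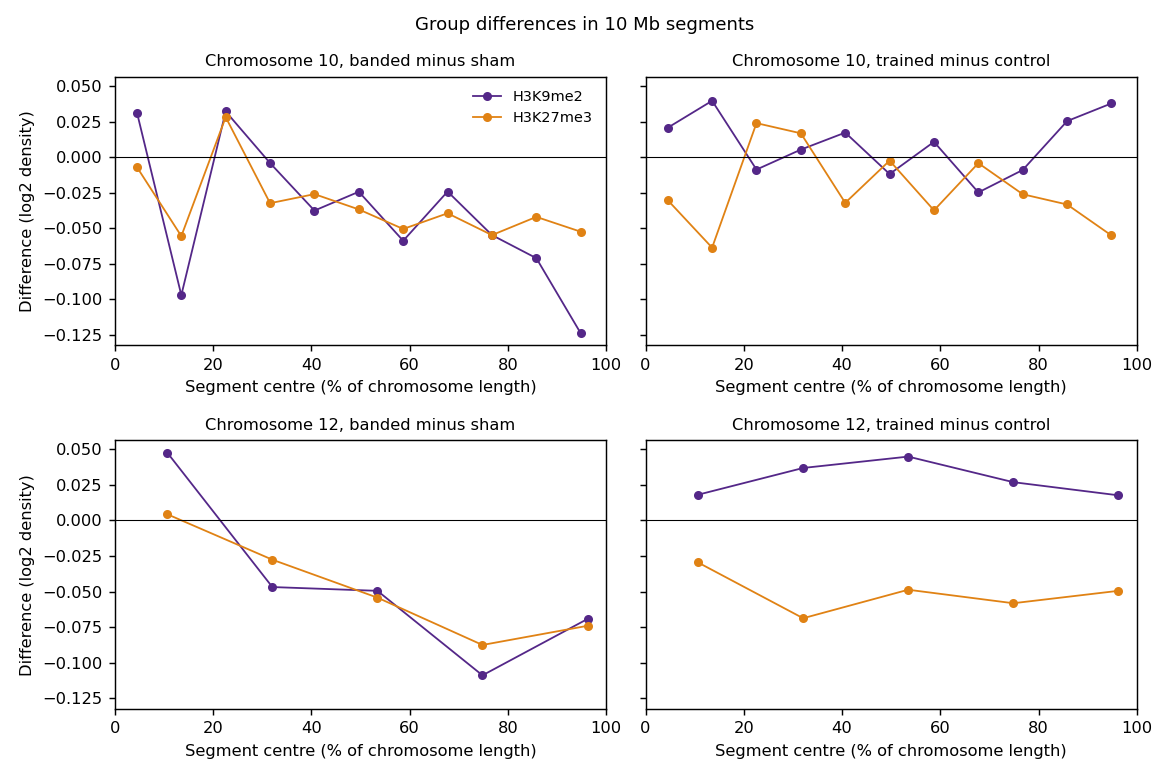
Log2 density difference in 10 Mb segments along chromosome 10 (top) and chromosome 12 (bottom), banded minus sham (left) and trained minus control (right), for H3K9me2 (purple) and H3K27me3 (orange), against the segment's centre as a percent of chromosome length. With banding both marks run together, mostly below 0 (13 and 14 of 16 segments), and with training the lines lie on either side of 0 on chromosome 12. Segments under 50% covered are left out.

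The banding and training comparisons share no column, so their values can be set side by side for the same windows. H3K9me2 was lower in banded and higher in trained rats in 67 of 158 windows of 1 Mb on chromosomes 10 and 12 (42.4%), against 29.4% of all 2554 windows. The reverse, higher in banded and lower in trained rats, held for 44 of 158 (27.8%), against 35.8%. Opposite H3K9me2 differences were not particular to these chromosomes: the Pearson r of the comparisons was -0.65 here and -0.55 elsewhere. H3K27me3 was lower in both banded and trained rats in 91 of 158 (57.6%), against 28.2%. On chromosome 12 alone that held for 35 of 47 windows (74.5%). With banding, both marks were lower together in 83 of 158 windows (52.5%), against 28.6%. With training, H3K9me2 was higher and H3K27me3 lower in 82 of 158 (51.9%), against 29.2%. By chromosome this was 49 of 111 windows on chromosome 10 (44.1%) and 33 of 47 on chromosome 12 (70.2%). The differences of the marks had a Pearson r of 0.77 with banding on these windows (0.55 elsewhere) and of -0.63 with training (-0.32 elsewhere). Neighbouring windows share bins and a common scaling, so these are descriptions without a test. The sign of the relation was the same on the other chromosomes.

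Gene density moved with the banding and training differences over the chromosomes, except for H3K9me2 with banding once chromosomes 10 and 12 were left out. For H3K27me3, the banded minus sham median of a chromosome was lower the more protein-coding genes it had per Mb (Pearson r = -0.90 and Spearman rho = -0.90 over 20 chromosomes, and -0.87 for each over the 18 without 10 and 12). Chromosomes 10 and 12 were thus the far end of a gradient that the others showed as well. For H3K9me2 with banding, r was -0.52 (rho -0.29) with both chromosomes and -0.11 without them, so there the relation rested on chromosomes 10 and 12. With training, r with and without them was 0.73 and 0.64 for H3K9me2 (rho 0.64 and 0.50). For H3K27me3 it was -0.69 and -0.64 (rho -0.68 and -0.56). Between the baselines, sham minus control, r with and without them was -0.50 and -0.19 for H3K27me3, and -0.022 and 0.37 for H3K9me2. H3K27me3 density itself had r of 0.72 to 0.79 with gene density in the 4 groups, and of 0.53 to 0.63 without chromosomes 10 and 12. Gene density goes with base composition and other features of a chromosome that were not measured here, and their part in the result was not tested.

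**Figure D5:**
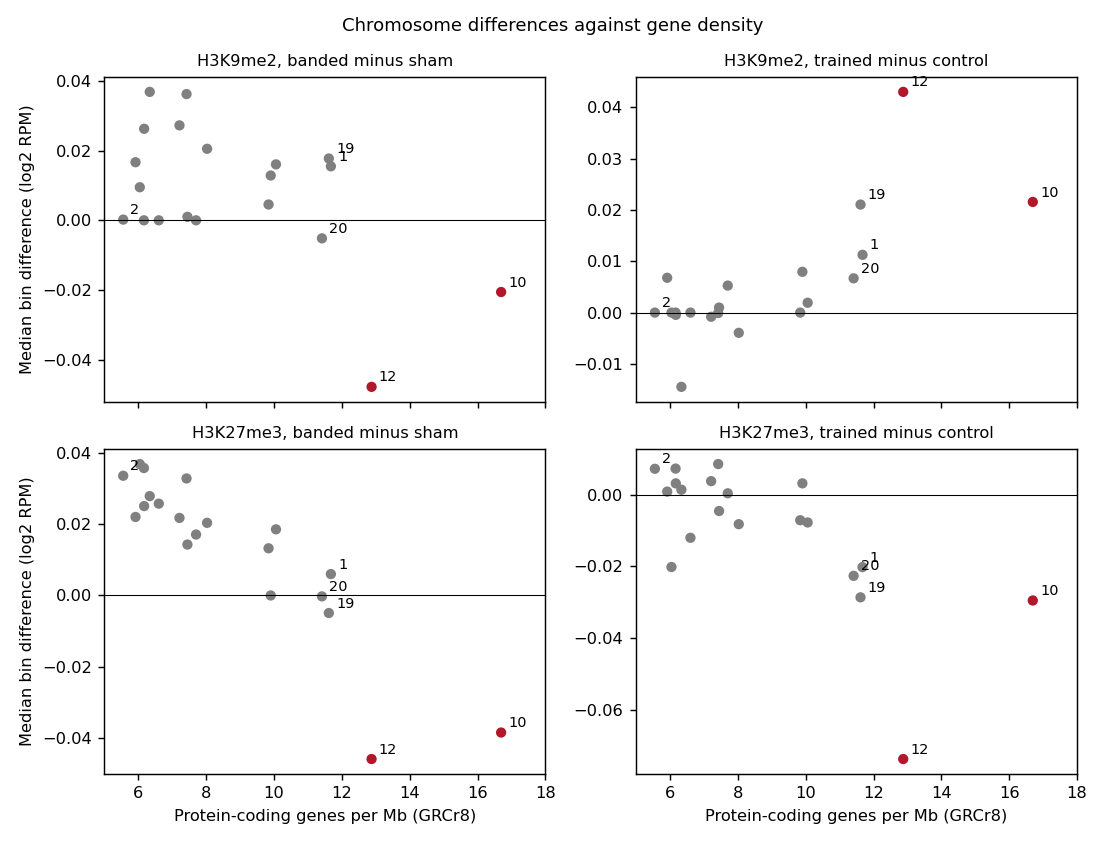
Length-weighted median bin difference (log2 RPM) of each of 20 chromosomes against its protein-coding genes per Mb in GRCr8, for both marks and both comparisons, with chromosomes 10 and 12 in red and chromosomes 1, 2, 19 and 20 labelled. The H3K27me3 points with banding run down from left to right (r = -0.90), and chromosomes 10 and 12 end the slope. The vertical scales differ between panels.

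Sham and control rats, the baselines of the experiments, differed far more on these bins than either treated group did from its own baseline. The groups also differ in surgery, starting weight and experiment, which cannot be told apart here, and for H3K27me3 the columns come from separate tables. Of 541 H3K9me2 bins on chromosomes 10 and 12, 205 differed by more than 0.5 (37.9%), against 26.6% of all bins. Of these, 117 were higher in sham rats (21.6%), against 14.2%, and 88 lower (16.3%), against 12.4%. For H3K27me3 the count was 36 of 689 (5.22%), against 3.14%, with 23 higher in sham rats (3.34%), against 1.81%, and 13 lower (1.89%), against 1.33%. Over all its bins the balance leaned the other way: H3K27me3 was lower in sham rats in 381 of 689 bins (55.3%), against 51.4% of all bins. Summed H3K27me3 was 473 RPM per Mb in sham and 493 in control rats on chromosome 10 (log2 ratio -0.059, the lowest of 20) and 441 and 451 on chromosome 12 (-0.030, the second lowest). On chromosome 10 that is further down than the -0.034 of banded minus sham. The length-weighted medians were above 0, at 0.011 and 0.022, against 0.021 to 0.15 on the others. At 0.25 the counts were 374 H3K9me2 bins (69.1%), against 57.8%, and 261 H3K27me3 bins (37.9%), against 32.6%. The marks were flatter in the surgery experiment: the length-weighted SD of log2 H3K9me2 density on chromosomes 10 and 12 was 0.38 in banded, 0.37 in sham, 0.52 in trained and 0.55 in control rats, and that of H3K27me3 was 0.77, 0.75, 1.00 and 0.93. Elsewhere the H3K9me2 SD was 0.32, 0.32, 0.40 and 0.42. In density class 1, set from the banded and trained columns, H3K9me2 was higher in sham than in control rats by 0.60 on chromosomes 10 and 12 and by 0.21 elsewhere, and in class 5 lower (-0.30 and -0.25). This comparison shares the sham column with the banding comparison and the control column with the training comparison, so its values are not independent of theirs. The largest H3K9me2 differences lay on chromosome 10 from 31185001 to 31285001 (582 RPM per Mb in sham and 226 in control rats, 1.37) and on chromosome 12 from 8525001 to 8565001 (337 and 802, -1.25). That at 31185001 was also the bin with the second largest fall with banding. The bin at 108175001 came next among the gains (394 and 154, 1.35), and chromosome 10 from 83425001 to 83485001 among the falls (260.2 and 599, -1.20). For H3K27me3 the largest gains were on chromosome 10 from 76775000 to 77155002 (266 and 170.2, 0.64) and on chromosome 12 from 25615000 to 26065002 (274 and 177, 0.63). The largest falls were on chromosome 12 from 40685000 to 40735002 (641 and 978, -0.61) and on chromosome 10 from 9125000 to 9205002 (671 and 1014, -0.60).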

How the data were processed

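Chromatin of sorted nuclei was digested with MNase and precipitated for H3K9me2 or H3K27me3, with 4 samples per group and mark. The authors deposited 1 value per group and bin, which is log2 of normalized RPM per the file headers and the values. No source used here names the genome build or says how the 4 samples were joined. Bowtie, SAMtools, edgeR and R 2.15.1 are named in the submitters' processing notes, with no role. The bin borders may themselves depend on the groups. Input samples and RNA tables were not used.

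Values were turned back to RPM (2 to the power of the value) and divided by covered Mb. A group difference is the difference of log2 values of a bin. A chromosome is summarised by the length-weighted median and by the ratio of summed RPM. With 1 column per group no test could be made. A difference of 0.5 on the log2 scale served as a size rule. Named bins are the 2 densest and 2 sparsest of at least 100 kb per chromosome and mark, the 2 largest gains and falls per comparison and mark, and all past 0.5 for banding and training. Named windows are those with the largest and smallest difference of the marks on each chromosome. Chromosomes, rules and lists were chosen with earlier results of these data known. Gene density came from the RefSeq table of GRCr8. Scripts ran in Python 3.11.15 with numpy 2.4.6, pandas 2.3.3 and matplotlib 3.10.9, and were tested on simulated data. Alternatives changed the median, threshold, low bins, window size, mark level, long bins and chromosome.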

Additional observations from a re-analysis of the deposited data

How the results depend on the processing

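Of 122 alternative values, 90 moved by less than the SD over the 18 other chromosomes, or by under 1.5 times for counts. The causes of the moves were not tested. Below, shifts are the length-weighted median log2 difference of chromosomes 10 and 12 minus that of the others. For H3K9me2, banded minus sham, the shift of -0.046 became -0.059 with an unweighted median, -0.059 within 5 classes of density, -0.067 without bins of 1 Mb or more and -0.061 on chromosome 12 alone. For H3K9me2, trained minus control, 0.023 became 0.015 with summed RPM and 0.043 on chromosome 12 alone. For H3K27me3, banded minus sham, -0.060 became -0.042 with summed RPM. For H3K27me3, trained minus control, -0.043 became -0.062 within classes, -0.026 on chromosome 10 alone and -0.070 on chromosome 12 alone. All shifts with banding and training kept their sign. Those of sham minus control did not: for H3K9me2, -0.029 turned to 0.00097 with an unweighted median, 0.0076 with summed RPM, 0.14 within classes and 0.077 without bins of 1 Mb or more, and for H3K27me3, -0.063 turned to 0.019 within classes. Without the sparsest 10% of bins the log2 H3K9me2 density ratio was 0.075 in trained rats (0.013 with it) and 0.063 in control rats (-0.0023 with it), and in banded rats it turned to 0.0055 (-0.038 with it). Over chromosome span in place of covered length it turned to -0.011 in sham rats (0.0053 by covered length) and -0.0034 in trained rats (0.013), all 3 moves being under 1 SD of the other chromosomes. The classes, single chromosomes and long bins were chosen after seeing the data.

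Counts of bins past 0.5 moved with the threshold by construction. For H3K9me2 with banding, the 1 bin became 77 at 0.25, and 0 at 1, with a pseudocount at the 10th percentile, or without the sparsest 10%. With training, 0 became 7 at 0.25. For sham minus control, 205 became 374 at 0.25, 19 at 1 and 92 with the pseudocount. For H3K27me3, 0 with banding became 42 at 0.25. With training, 1 became 33 at 0.25 and 0 at 1 or with the pseudocount. For sham minus control, 36 became 261 at 0.25, 0 at 1 and 8 with the pseudocount.

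No paired analysis was possible because each group has 1 column per mark, and no replicate was left out for the same reason. The files hold no bins on X, so leaving X out changed nothing. Read depth is unknown.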

Other observations

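In H3K9me2, bins with exactly equal values in both groups were rarer by length on chromosomes 10 and 12. They made up 0.797% of the length for banded and sham rats, against 6.45% on the other chromosomes, and 2.03% for trained and control rats, against 9.53%. In H3K27me3 the order was the other way, with 0.839% against 0.744% and 2.46% against 1.39%. Chromosome 19, the fourth in gene density, moved like chromosomes 10 and 12 by summed RPM in some comparisons: its log2 ratio was -0.031 for H3K9me2 with banding, 0.017 for H3K9me2 with training and -0.028 for H3K27me3 with training, but -0.012 for H3K27me3 with banding. For H3K9me2 with banding its length-weighted median had the opposite sign (0.018, rank 15 of 20, with 47.9% of its bins lower). Its H3K9me2 density was the second highest of 20 in banded, sham and trained rats, where that of chromosome 12 was lowest or second lowest.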
